A study of Mus musculus with 30 samples.

Results

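Nodal signalling was followed across nuclear RNA-seq of mouse embryonic stem cells (mESCs) through 8 listed genes: Nodal, Lefty1, Lefty2, Tdgf1, Smad7, Skil, Acvr2b and Cer1. These are 8 of the 55401 genes counted, and 7 of them had enough counts to be tested. They were named for their place in the pathway, with earlier results of these data known. The 30 libraries make up 15 conditions with 2 replicates each, held in 4 count tables, and comparisons were made within a table only. The parental line CGR8 carries no degron and was either kept as control or given 500 µM indole-3-acetic acid (IAA, an auxin) for 4 h. SYAT cells are a CGR8 clone in which both Srcap alleles encode SRCAP-YPet-AID and in which the auxin receptor OsTir1 is expressed from a lentiviral vector, so that IAA degrades SRCAP, the catalytic subunit of the complex that exchanges H2A for H2A.Z. Control SYAT cells were kept in auxinole, an inhibitor of Tir1, and treated cells received 500 µM IAA and were taken at 2, 4, 6 and 8 h. EG1 and LG1 are SYAT cells in early and late G1, sorted by DNA content and a fluorescent mitotic reporter after control treatment or 1 h of IAA. wtSRCAP and cdSRCAP are SYAT clones, 1 each, in which 24 h of doxycycline (Dox) induced wild-type SRCAP or SRCAP with a mutated ATPase site, with or without 4 h of 500 µM IAA. All cells derive from CGR8 and were grown in serum with leukemia inhibitory factor (LIF) for the experiments.

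Nodal is a secreted ligand of the TGF-β family that acts through activin receptors, and it does so only together with a co-receptor at the cell surface. The activated receptors phosphorylate SMAD2 and SMAD3, which enter the nucleus with SMAD4 and partners such as FOXH1 and switch on target genes. Among these targets are Nodal itself and its inhibitors Lefty1 and Lefty2, so that the pathway carries a positive and a negative loop. In the embryo the pathway patterns the body axes and induces mesendoderm, and mESCs in culture keep it active.

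Exon columns summed to between 45617992 and 60214521 counts per library in CGR8, 17540823 and 22873893 for SYAT cells followed over time, 19740778 and 26672402 in EG1 and LG1, and 12236493 and 26369773 in wtSRCAP and cdSRCAP. All 10 markers of pluripotent mESCs on a list were present in every library, with Pou5f1 at 317 CPM where it was lowest (CPM, counts scaled to a common library size with edgeR's TMM factors). Summed markers of fibroblasts (6 genes) lay between 5.12 and 46.9 CPM, and those of primitive endoderm (8 genes) between 54.9 and 315 CPM. Srcap transcript, which a protein degron need not change and which therefore does not check the treatment, lay between 21.3 and 24.2 CPM in CGR8 and between 39.9 and 60.2 CPM over the SYAT hours. Intron columns do not hold the same kind of reads throughout. Of genes with 1 exon and at least 20 exon counts, 35.0 to 47.2% also had counts in the intron columns of SYAT cells followed over time and 34.1 to 41.4% in those of EG1, against at most 0.0490% in the other libraries. Intron columns are therefore read as introns in CGR8, LG1, wtSRCAP and cdSRCAP only.

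The 8 genes lie on 6 chromosomes (GRCm38, GENCODE). Lefty2 (chr1:180893108-180899103) and Lefty1 (chr1:180935022-180938400) lie 35918 bases apart on the plus strand, and their longest open reading frames are 91.9% identical. Of the 75-base stretches of Lefty1 transcripts, the read length used, 11.7% also occur in Lefty2, and 7.77% of those of Lefty2 occur in Lefty1. A small share of single reads could therefore match both genes. Nodal lies at chr10:61417972-61425338 and Tdgf1 at chr9:110939603-110946158, and 5.99% of the 75-base stretches of Tdgf1 occur in its processed copies Tdgf1-ps1 and Tdgf1-ps2. Acvr2b (chr9:119402118-119434995) overlaps the antisense gene Gm47320. Smad7, Skil (chr3:31095058-31122577) and Cer1 (chr4:82881751-82885148) overlap no other gene in the reference annotation.

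The 250 bases before the start sites of Tdgf1 and Nodal are shown because these genes encode the co-receptor and the ligand that the Lefty proteins block. They are RefSeq sequences of GRCm38.p6, 5′ to 3′ on the gene's own strand, and 4 of the 8 genes had an entry in the table of promoters. Capitals mark matches to the motifs searched on both strands, which were the SMAD element CAGAC, the SMAD palindrome GTCTAGAC, the FOXH1 motif TGTNNATT, the SP and KLF box GGGCGG, the TATA box TATAAA and the OCT4 core ATGCAAAT.
Tdgf1, chr9:110946159-110946408, minus strand: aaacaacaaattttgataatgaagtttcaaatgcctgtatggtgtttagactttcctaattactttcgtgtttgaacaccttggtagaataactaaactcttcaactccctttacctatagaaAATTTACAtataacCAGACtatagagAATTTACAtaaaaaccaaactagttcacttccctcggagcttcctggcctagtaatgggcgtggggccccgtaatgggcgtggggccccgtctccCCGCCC
Nodal, chr10:61417722-61417971, plus strand: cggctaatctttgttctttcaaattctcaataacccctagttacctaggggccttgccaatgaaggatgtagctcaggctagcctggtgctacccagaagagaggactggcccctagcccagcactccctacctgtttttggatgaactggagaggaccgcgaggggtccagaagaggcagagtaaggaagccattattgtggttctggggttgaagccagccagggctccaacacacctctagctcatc
The Tdgf1 stretch held 2 FOXH1 motifs, which begin at positions -127 and -101 from the start site, with 1 SMAD element between them at -113 and 1 SP and KLF box at -6, and none of these matches overlapped another. The Nodal stretch held none of the 6 motifs. Among 32851 mouse promoters of the same length, 10.9% held a FOXH1 motif, 42.2% a SMAD element, 32.7% an SP and KLF box, 12.4% a TATA box, 1.60% the OCT4 core and 0.167% the SMAD palindrome. A match describes these letters only.

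Per kb of exon, Tdgf1 had the highest level of the 8 genes in 3 of the 4 tables. It lay between 125 and 202 CPM per kb in the SYAT time course, between 244 and 385 in CGR8 and between 110.2 and 265 in wtSRCAP and cdSRCAP, above the range of every other member. Nodal was second in CGR8 at 35.4 to 41.2 CPM per kb, apart from the members below it, which overlapped each other between 7.72 and 25.1. In the SYAT time course, Skil (31.9 to 48.1), Nodal (32.8 to 47.5), Lefty1 (18.3 to 57.6), Smad7 (22.6 to 40.8), Acvr2b (23.7 to 33.5) and Lefty2 (11.9 to 40.9) could not be placed in order beyond their spread. The order differed in EG1 and LG1, with Lefty1 highest at 190.4 to 305 CPM per kb, ahead of Tdgf1 at 72.8 to 119.6 and Lefty2 at 44.6 to 73.1. The tables were made separately, so levels are not tested between them. Cer1, a secreted antagonist of Nodal, had 10 exon counts in all 30 libraries together, with 24 libraries at 0 and at most 2 counts in any other. A count of 0 allows up to 3 counts of a library's total, for counting error only, and Cer1 was not tested.

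**Figure D1:**
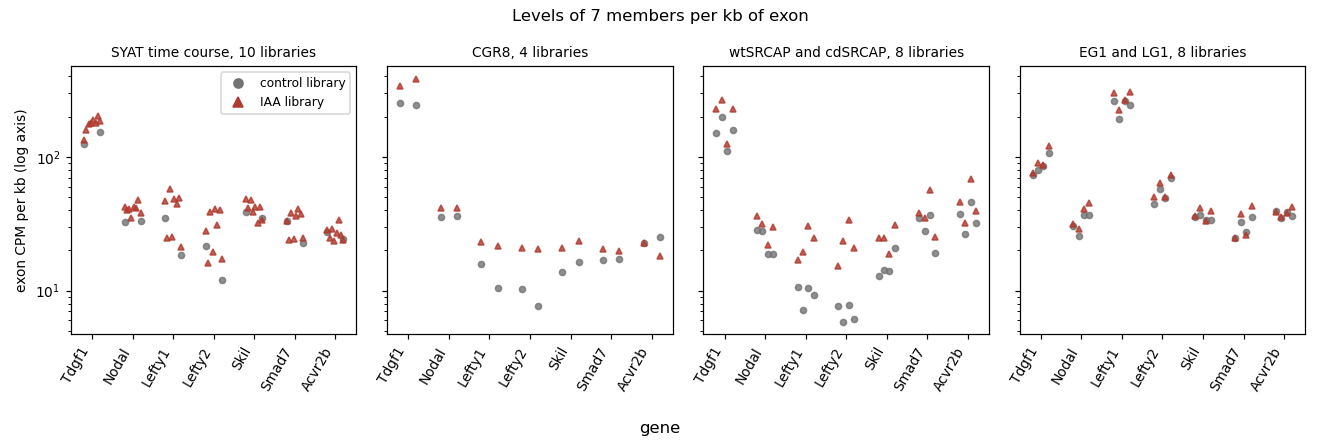
Levels of 7 members in exon CPM per kb of exon (log axis) in each of the 30 libraries, 1 panel per count table, with control libraries as grey circles and IAA libraries as red triangles. Tdgf1 stands above the other members in 3 panels, and Lefty1 stands highest in EG1 and LG1 at 190.4 to 305.

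For each comparison, exon counts of all genes were tested with edgeR's quasi-likelihood test, and a gene was called at an absolute log2 difference over 0.5 and an adjusted p under 0.05. In EG1 and LG1 the thresholds for 1 h of IAA were a log2 difference over 0.25 and an unadjusted p under 0.05. p-values rest on the spread between the 2 biological replicates of a condition, estimated over all conditions of a table with information shared across genes. In counts simulated for the 2 h comparison 73 of 100 genes changed by 1 on the log2 scale were called, against 94 of 100 in CGR8 and 6 of 100 in wtSRCAP. The changed genes were drawn from those above the median level. These shares therefore do not give the rate of calls for a single member, such as the widely spread Lefty genes.

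**Figure D2:**
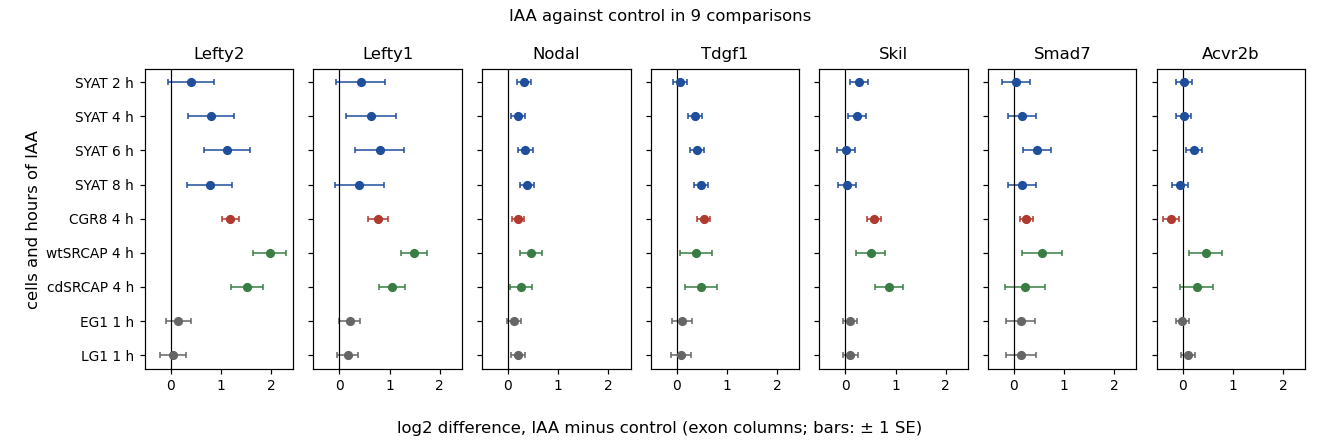
Log2 difference of exon counts, IAA minus control (x axis), for 7 members in 9 comparisons (y axis: cells and hours of IAA); points are edgeR estimates and bars ± 1 SE. Lefty2 and Lefty1 lie farthest from 0 in CGR8, wtSRCAP and cdSRCAP, up to 1.98 for Lefty2, while all members lie within 0.21 of 0 after 1 h in EG1 and LG1.

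The ligand Nodal differed little in size, but its replicates were close together. In the SYAT time course it stood at 68.6 and 68.9 CPM in control, 87.9 and 83.3 at 2 h, 84.8 and 73.4 at 4 h, 87.9 and 87.0 at 6 h and 99.6 and 79.8 at 8 h. Every treated library was above both controls. In RNA from whole cultures, more cells that express a gene and more RNA per cell cannot be told apart. The log2 differences were 0.32 ± 0.14 (SE, n = 2 per group), 0.20 ± 0.14, 0.35 ± 0.14 and 0.38 ± 0.14, and none passed the thresholds, with the lowest edgeR adjusted p at 0.271 at 6 h. In CGR8, Nodal was at 74.2 and 76.0 CPM in control and 86.1 and 86.4 after IAA, also without overlap, with a log2 difference of 0.20 ± 0.13. In wtSRCAP cells it was at 39.1 and 39.4 in control and 45.7 and 62.2 after IAA (0.46 ± 0.22), and in cdSRCAP cells at 59.5 and 58.6 in control and 75.4 and 65.4 after IAA (0.25 ± 0.22).

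Tdgf1 encodes Cripto, the co-receptor that lets Nodal bind activin receptors. Its exon level was 327 and 402 CPM in SYAT control, 351 and 416 at 2 h, 465 and 469 at 4 h, 492 and 469 at 6 h and 529 and 486 at 8 h. The groups overlapped at 2 h and did not from 4 h on. The log2 differences were 0.07, 0.36, 0.40 and 0.48, each ± 0.14, and the adjusted p at 8 h was 0.174 by edgeR. In a test of any difference over the 4 times, Tdgf1 had the lowest p of the members, with an adjusted p of 0.526. In CGR8 cells without a degron, Tdgf1 was at 661 and 639.6 CPM in control and 884 and 1009 after 4 h of IAA, a log2 difference of 0.54 ± 0.13. The processed copy Tdgf1-ps1 held 2832 to 6090 exon counts in CGR8, against 28260 to 62511 for Tdgf1. In wtSRCAP cells Tdgf1 was at 289 and 417 in control and 326 and 598 after IAA, with overlap (0.39 ± 0.32), and the difference was -0.088 ± 0.29 without replicate 2 of the IAA libraries. In cdSRCAP cells it was at 398 and 524 in control and 596 and 694 after IAA (0.48 ± 0.32), without overlap.

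**Figure D3:**
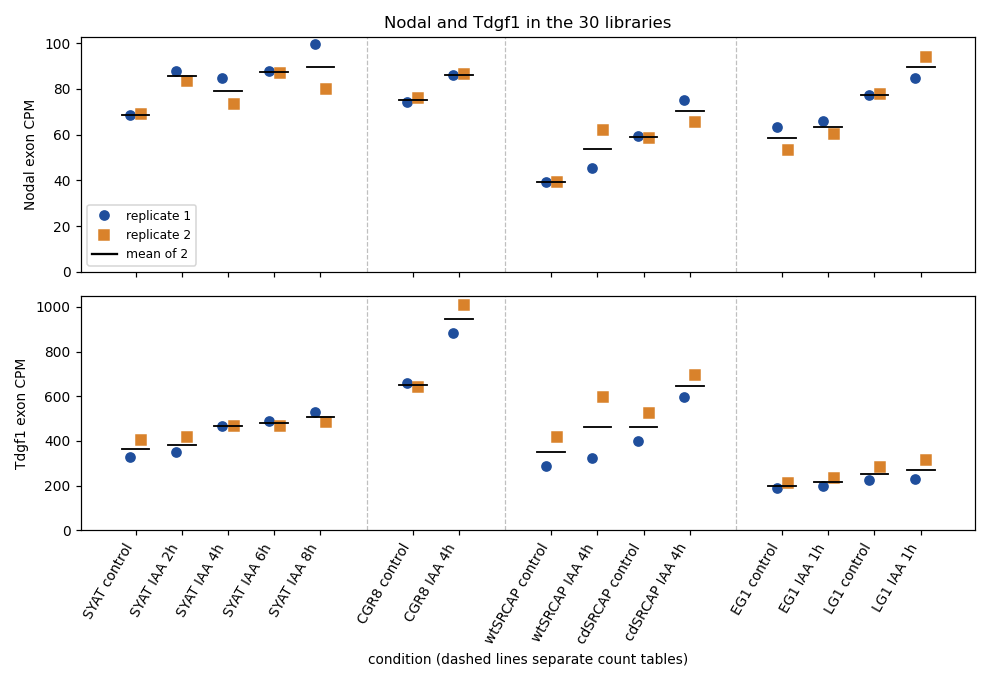
Exon CPM (y axis, from 0) of Nodal and Tdgf1 in each library by condition (x axis), with circles for replicate 1, squares for replicate 2 and a line for their mean. Nodal control replicates nearly coincide in SYAT (68.6 and 68.9 CPM), CGR8 and wtSRCAP, and Tdgf1 in CGR8 lies at 661 and 639.6 in control and 884 and 1009 after IAA.

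Acvr2b, a type II activin receptor that also serves other ligands, showed no common direction. Its means were 102 ± 9.27 CPM (SD, n = 2) in SYAT control and between 98.0 and 119 over the 4 times, with overlap at each, and the log2 differences ran from -0.06 ± 0.16 at 8 h to 0.22 ± 0.16 at 6 h. In CGR8 it was at 89.5 and 98.7 CPM in control and 88.7 and 71.8 after IAA, the only member below its controls, with a log2 difference of -0.23 ± 0.15 that did not pass. The wtSRCAP and cdSRCAP groups overlapped, with log2 differences of 0.46 ± 0.33 and 0.28 ± 0.33.

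The inhibitors Lefty1 and Lefty2 had the largest log2 differences of the 7 tested members in CGR8, wtSRCAP and cdSRCAP and at 2, 4 and 6 h in SYAT cells. At 2 h both were smaller than their SE. LEFTY proteins block Nodal signalling at the receptor and co-receptor, and both genes are targets of the same signal. Lefty2 in the SYAT time course was at 55.8 and 31.1 CPM in control, 72.7 and 42.1 at 2 h, 101 and 51.1 at 4 h, 107 and 81.1 at 6 h and 104 and 44.7 at 8 h. Replicate 1 was above replicate 2 in all 5 conditions, and the groups were separate at 6 h alone. The log2 differences were 0.40 ± 0.46, 0.81 ± 0.46, 1.11 ± 0.46 and 0.77 ± 0.46, with an edgeR adjusted p of 0.274 at 6 h. Leaving out 1 library at a time gave Lefty2 differences from -0.053 to 0.88 at 2 h, 0.23 to 1.29 at 4 h, 0.75 to 1.60 at 6 h and 0.033 to 1.26 at 8 h. Lefty1 was at 61.4 and 32.3 CPM in control, 82.1 and 43.7 at 2 h, 101 and 43.9 at 4 h, 85.6 and 77.9 at 6 h and 86.1 and 37.0 at 8 h. Its log2 differences were 0.43, 0.63, 0.81 and 0.39, each ± 0.49, and the groups were separate at 6 h alone. Without replicate 1 of the 4 h libraries the Lefty1 difference at 4 h was -0.096 ± 0.52, and leaving out 1 library at a time gave differences from -0.11 to 0.96 at 2 h, 0.41 to 1.34 at 6 h and -0.35 to 0.93 at 8 h. Markers of primitive endoderm summed to 54.9 and 55.1 CPM in SYAT control and to between 63.0 and 90.4 CPM in the treated libraries, with none of the 8 at 0, and those of fibroblasts to 21.9 to 27.0 and 23.7 to 39.0 CPM, with Lum at 0 in at least 1 library of each condition. Their part in the Lefty values was not tested.

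CGR8 cells, which carry no degron, showed the Lefty differences as well. Lefty2 was at 26.9 and 20.2 CPM in control and 54.2 and 53.1 after 4 h of IAA, a 2.28-fold ratio of means and a log2 difference of 1.19 ± 0.17 (edgeR adjusted p = 0.273). Among 20250 genes tested, 6 had a smaller p. Lefty1 was at 27.8 and 18.5 CPM in control and 40.8 and 38.1 after IAA, a log2 difference of 0.77 ± 0.20 (adjusted p = 0.540). After the same 4 h in SYAT cells, the log2 differences were 0.81 ± 0.46 and 0.63 ± 0.49, from another table with its own controls, and the responses of the lines were not tested against each other. Summed markers of primitive endoderm were lower after IAA here, at 268 to 293 CPM in control and 235 to 251 after IAA, with none of the 8 at 0.

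In wtSRCAP cells Lefty2 was at 20.3 and 15.9 CPM in control and 88.6 and 53.9 after 4 h of IAA, a 3.94-fold ratio of means and a log2 difference of 1.98 ± 0.33 (edgeR adjusted p = 0.597). Lefty1 was at 18.3 and 16.2 CPM in control and 53.5 and 43.3 after IAA, a log2 difference of 1.49 ± 0.26 (edgeR adjusted p = 0.597). By p they were the genes of rank 3 and 4 among 19111. In cdSRCAP cells Lefty2 was at 20.2 and 15.2 CPM in control and 39.8 and 61.7 after IAA, a log2 difference of 1.52 ± 0.32 (edgeR adjusted p = 0.721), and Lefty1 at 18.7 and 12.6 in control and 29.9 and 34.4 after IAA, a difference of 1.04 ± 0.26 (edgeR adjusted p = 0.721). In both clones the groups were separate for both genes. The responses of the 2 clones did not differ detectably, with cdSRCAP minus wtSRCAP at -0.45 ± 0.45 for Lefty2 and -0.44 ± 0.36 for Lefty1. Summed fibroblast markers were at 5.12 and 5.40 CPM in wtSRCAP control and 12.1 and 12.3 CPM after IAA, and at 6.48 to 7.47 and 8.39 to 8.73 CPM in cdSRCAP, with Col3a1, Dcn and Lum at 0 in at least 1 library of each of these conditions. Summed primitive endoderm markers were at 98.1 to 184 CPM in wtSRCAP control and 153 to 207 after IAA, and at 237 to 315 and 308 to 309 CPM in cdSRCAP, with Sox17 at 0 in at least 1 wtSRCAP IAA and 1 cdSRCAP control library and Pdgfra in at least 1 wtSRCAP IAA library. The part of these markers in the Lefty values was not tested.

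**Figure D4:**
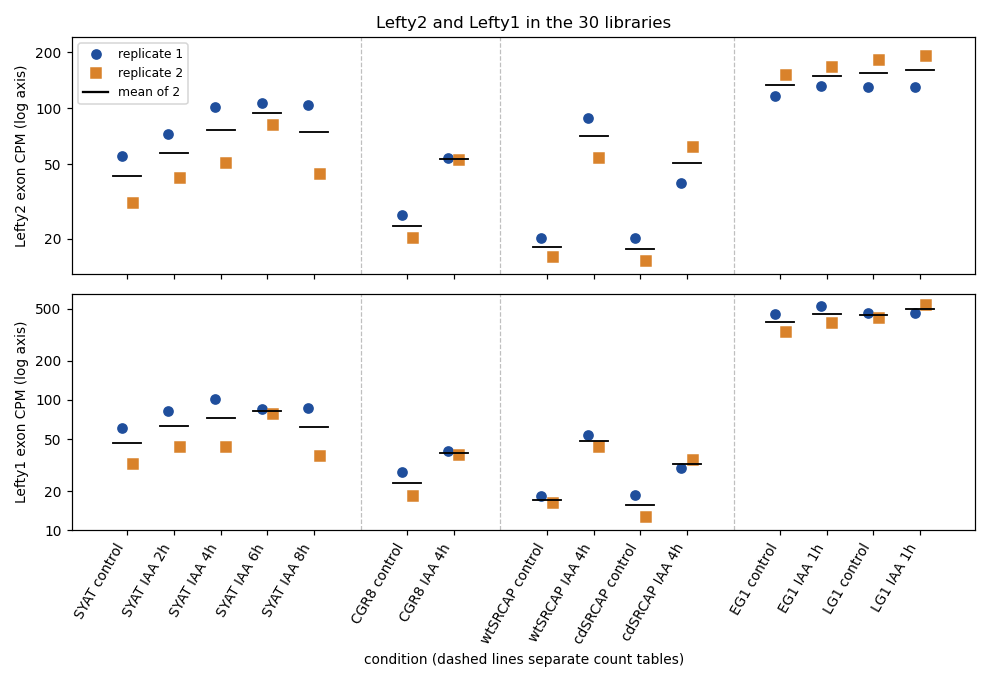
Exon CPM (log y axis) of Lefty2 and Lefty1 in each library by condition (x axis), with circles for replicate 1, squares for replicate 2 and a line for their mean. IAA libraries lie above both controls in CGR8, wtSRCAP and cdSRCAP and at 6 h in SYAT, while in the SYAT time course replicate 1 lies above replicate 2 throughout.

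Skil and Smad7 act inside the cell, Skil (SnoN) as a co-repressor of SMAD complexes and Smad7 as an inhibitory SMAD, and both are induced by TGF-β family signals. Skil in CGR8 was at 133 and 158 CPM in control and 202 and 229.6 after IAA, a log2 difference of 0.57 ± 0.14 (edgeR adjusted p = 0.540). In cdSRCAP cells it was at 125 and 138 CPM in control and 240.4 and 239 after IAA (0.87 ± 0.28), and in wtSRCAP cells at 136 and 204 in control and 182 and 299 after IAA (0.50 ± 0.28), with overlap. In the SYAT time course Skil differed by 0.28 ± 0.18 at 2 h, 0.22 ± 0.18 at 4 h, 0.01 ± 0.18 at 6 h and 0.04 ± 0.18 at 8 h, and by -0.21 ± 0.18 at 6 h without replicate 1 of the 6 h libraries. Smad7 was at 151 and 102 CPM in SYAT control and at 162 and 184 at 6 h, its only time without overlap, a log2 difference of 0.46 ± 0.28. In CGR8 it was at 76.5 and 77.9 CPM in control and 93.2 and 90.1 after IAA (0.25 ± 0.13). Its replicates were far apart in wtSRCAP cells, at 165 and 86.8 CPM in control and 256 and 113 after IAA, where the difference of 0.55 ± 0.40 became -0.13 ± 0.36 without replicate 1 of the IAA libraries.

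No member passed the thresholds in an exon comparison by edgeR with all libraries and no replicate block. At 2 and at 4 h of IAA in SYAT cells 0 of 7 members were called, and 0% of the 19205 genes tested, while 1 member each (Nodal at 2 h and Tdgf1 at 4 h) had an unadjusted p under 0.05, as had 3.92% and 9.09% of genes. At 6 h 0 of 7 were called against 0.0677% of genes, with 3 members (Lefty2, Nodal and Tdgf1) at an unadjusted p under 0.05 against 16.1%. At 8 h 0 of 7 were called against 0.00521%, with 2 members (Nodal and Tdgf1) under 0.05 against 13.6%. In the test over all 4 times 0 members were called, against 0% of genes, and 1 member, Tdgf1, had an unadjusted p under 0.05, as had 7.63% of genes. Treated libraries lay above both controls for 2 members at 2 h, 3 at 4 h, 5 at 6 h and 2 at 8 h, against 18.6%, 21.7%, 21.5% and 20.9% of genes. DESeq2 called 0 members at each of the 4 times, where it called 0.0509%, 0.859%, 3.98% and 2.27% of genes, and 0 over all times, where it called 1.87%.

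In CGR8 edgeR called 0 of 7 members against 0.00988% of genes, and 4 members (Lefty2, Tdgf1, Skil and Lefty1) had an unadjusted p under 0.05 against 9.16% of genes. DESeq2 called 3 of them, Lefty1, Lefty2 and Skil, all higher, against 0.644% of genes called higher. Without replicate 1 of the CGR8 control, the edgeR log2 difference was 1.10 for Lefty1 and 1.43 for Lefty2. Without replicate 2 it was 1.00 for Lefty2, 0.71 for Skil and 0.52 for Tdgf1. In each of these fits the lone control is assumed to vary like the IAA libraries. In CGR8, 6 members had IAA libraries above both controls, against 21.6% of genes. In wtSRCAP edgeR called 0 of 7 against 0.00523% of genes, with 2 members under an unadjusted p of 0.05 against 7.4%, and DESeq2 called both Lefty genes, against 0.069% of genes called higher. In cdSRCAP edgeR called 0 of 7 against 0% of genes, with 3 members (Lefty2, Lefty1 and Skil) under 0.05 against 5.64%, and DESeq2 called Lefty2 alone, against 0.0122% called higher. Treated libraries lay above both controls for 3 members in wtSRCAP, against 14.9% of genes, and for 6 in cdSRCAP, against 18.7%. The median log2 difference over the 7 members was 0.54 in CGR8, 0.50 in wtSRCAP and 0.48 in cdSRCAP, against -0.000302, -0.02 and 0.02 over all genes tested, and in the SYAT time course it was 0.28 at 2 h, 0.22 at 4 h, 0.40 at 6 h and 0.38 at 8 h, against 0.0034 to 0.031. In EG1 and LG1 it was 0.12 and 0.11, against 0.00055 and 0.0092. The members were chosen with earlier results of these data known and some vary together, so these medians are a description and no test.

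In EG1 and LG1 the members differed little after 1 h of IAA. Lefty1 was at 459.8 and 335 CPM in EG1 control and 526 and 391 after IAA (0.21 ± 0.21), and at 463 and 427 in LG1 control and 465 and 536 after IAA (0.17 ± 0.21). Lefty2 was at 117 and 151 CPM in EG1 control and 131 and 166 after IAA (0.16 ± 0.26), and at 129 and 181 in LG1 control and 129.8 and 191 after IAA (0.05 ± 0.26). edgeR called 0 of 7 members in EG1, against 1.22% of 21020 genes, and 0 of 7 in LG1, against 1.02%, with 0 members at an unadjusted p under 0.05 in either, and DESeq2 called 0 in both, against 0.239% and 0.111% of genes. The response in LG1 against that in EG1 differed for 0 members by edgeR and 0 by DESeq2, against 0% of genes by either, with 0 members at an unadjusted p under 0.05 against 0.699% of genes. Nodal was higher in LG1 than in EG1 without IAA, at 77.2 and 77.6 against 63.5 and 53.2 CPM, a log2 difference of 0.41 ± 0.14 that did not pass (edgeR adjusted p = 1.00). It was the 1 member with an unadjusted p under 0.05 there, against 1.44% of genes, while 0 members and 0% of genes were called by edgeR and by DESeq2.

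The clones are set against each other here in exon columns only. Without IAA, Nodal stood at 59.5 and 58.6 CPM in cdSRCAP cells against 39.1 and 39.4 in wtSRCAP cells, a log2 difference of 0.59 ± 0.22 that did not pass (edgeR adjusted p = 1.00). edgeR called 0 of 7 members there, against 0% of genes, and Nodal was the 1 member under an unadjusted p of 0.05, against 3.82%, while DESeq2 called 0 against 0.175%. After IAA, edgeR called 0 of 7 against 0.00523% of genes and DESeq2 0 against 0.0183%, and 1 member, Lefty1, had an unadjusted p under 0.05, against 5.03%, at 29.9 and 34.4 CPM in cdSRCAP against 53.5 and 43.3 in wtSRCAP (-0.59 ± 0.25). The response to IAA in cdSRCAP against that in wtSRCAP differed for 0 members by edgeR and 0 by DESeq2, against 0% of genes by either, and 0 members had an unadjusted p under 0.05, against 0.785% of genes.

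Intron reads, which come mostly from RNA not yet spliced, were few for the Lefty genes, with 0 to 59 counts of Lefty1 and 0 to 58 of Lefty2 per library in CGR8, wtSRCAP and cdSRCAP, so that their intron differences were not detectable at this depth or were imprecise. Lefty1 introns in wtSRCAP cells held 6 and 12 counts in control and 9 and 52 after IAA (1.87 ± 0.69). Tdgf1 introns were better covered, at 117 and 130.1 CPM in CGR8 control and 161 and 194 after IAA, a log2 difference of 0.53 ± 0.16 beside 0.54 ± 0.13 in exons. They were at 82.0 and 80.4 CPM in wtSRCAP control and 112 and 112 after IAA (0.47 ± 0.16), and at 101 and 85.6 in cdSRCAP control and 135 and 129 after IAA (0.50 ± 0.16). Skil introns were at 92.9 and 118 CPM in wtSRCAP control and 156 and 159 after IAA (0.57 ± 0.22), and at 110.1 and 72.6 in cdSRCAP control and 139 and 128 after IAA (0.55 ± 0.21), but in CGR8 the difference was 0.18 ± 0.17 beside 0.57 ± 0.14 in exons. Nodal introns in CGR8 lay in the other direction from its exons, at 80.7 and 48.2 CPM in control and 41.3 and 38.8 after IAA (-0.68 ± 0.27, from -1.01 to -0.27 with 1 library left out).

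None of these intron differences passed the thresholds. edgeR called 0 of 7 members in CGR8 introns against 0.022% of genes, 0 in wtSRCAP introns against 0.299% and 0 in cdSRCAP introns against 0.236%. The members with an unadjusted p under 0.05 were Tdgf1 and Nodal in CGR8 (2, against 5.24% of genes), Tdgf1, Lefty1, Smad7 and Skil in wtSRCAP (4, against 12.4%) and Tdgf1 and Skil in cdSRCAP (2, against 11.3%), while DESeq2 called 0 members in each, against 0.186%, 2.1% and 1.5% of genes. Without replicate 2 of the CGR8 control, the intron log2 differences in CGR8 were 0.62 for Tdgf1 and -1.01 for Nodal. The lone control, assumed to vary like the IAA libraries, then had 0 intron counts of Lefty1. In LG1, where the thresholds are lower, Acvr2b introns were called higher after 1 h of IAA, at 74.2 and 75.7 CPM in control and 88.8 and 110.2 after IAA (0.41 ± 0.16, unadjusted p = 0.0367 and adjusted p = 1.00 by edgeR), against 1.24% of genes called higher. DESeq2, on the same libraries, also called Acvr2b and no other member, but its share of all genes called there is not given. The main fit of LG1 introns was shared with the EG1 intron columns, which also hold exon reads. The call was lost with only the 4 LG1 libraries in the fit (0.40 ± 0.20) and without the filter on low counts (0.37 ± 0.20). The difference was 0.24 ± 0.17 without replicate 2 of the IAA libraries. It was 0.39 ± 0.22 without replicate 1 of the control and 0.42 ± 0.22 without replicate 2 of the control.

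Replicates differed more for some members than for others. Over the 15 conditions, the median size of the log2 difference between replicates was 0.43 for Lefty1 and 0.49 for Lefty2, against 0.08 for Nodal, 0.19 for Acvr2b, 0.22 for Skil, 0.24 for Tdgf1 and 0.48 for Smad7. The differences of Lefty1 and Lefty2 had the same sign in 12 of 15 conditions, with a Pearson r of 0.82, a description over libraries that share their depth and culture. In the SYAT time course replicate 2 was lower in 5 of 5 conditions for both, by 0.14 to 1.22 for Lefty1 and by 0.40 to 1.22 for Lefty2. For Nodal and Tdgf1 the r was 0.75, with the same sign in 8 of 15 conditions, and for Acvr2b and Tdgf1 it was -0.63, with the same sign in 2 of 15. Other pairs were alike too, with r at 0.76 for Lefty2 and Smad7 and 0.68 for Acvr2b and Smad7, each with the same sign in 12 of 15, and at 0.78 for Tdgf1 and Skil.

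**Figure D5:**
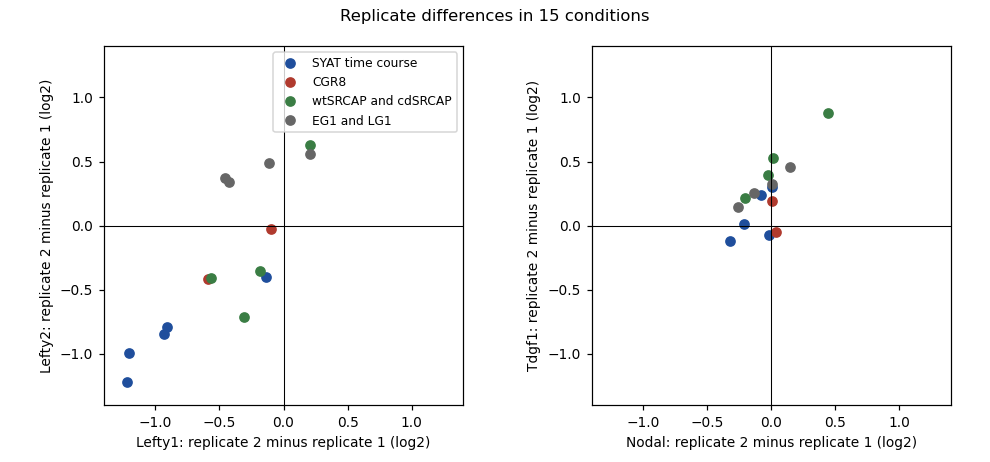
Replicate 2 minus replicate 1 on the log2 scale in each of the 15 conditions, for Lefty2 against Lefty1 (left) and Tdgf1 against Nodal (right), coloured by count table. The 5 SYAT time course conditions lie below 0 for both Lefty genes, and the median size of the differences is 0.08 for Nodal against 0.43 for Lefty1 and 0.49 for Lefty2.

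Over the 30 libraries, centred within each table, Lefty1 and Lefty2 were most alike to each other among 17481 genes, with a Pearson r of 0.92 and a Spearman rho of 0.93. This describes 4 sets of libraries with shared controls and is no test. The next most alike gene was Tgfb1 for Lefty1 (r = 0.88) and Irf1 for Lefty2 (r = 0.89). Nodal was most like Pmepa1 (r = 0.82) and Dcbld1 (r = 0.79), Tdgf1 most like Sirt1 (r = 0.88) and Cggbp1 (r = 0.85), Smad7 most like Fjx1 (r = 0.89) and Pkdcc (r = 0.88), Skil most like Fbxo30 (r = 0.86) and Cep68 (r = 0.85) and Acvr2b most like Krt7 (r = 0.94) and Lzts2 (r = 0.94). Between Nodal and Tdgf1 r was 0.73, and between Nodal and Lefty2 it was 0.41.

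A list of 51 other genes of the pathway, chosen by role (ligands, receptors, SMADs and their partners, antagonists, co-repressors, convertases and targets), gave no call in SYAT, CGR8, wtSRCAP or cdSRCAP exons by edgeR, where 42 to 46 of them were tested. DESeq2 called Inhbb higher at 6 and 8 h in SYAT cells, where it called 3.98% and 2.27% of all genes in either direction. In wtSRCAP it called Inhbb and Tgfb1 higher (both named after their values were seen), against 0.069% of genes called higher. It called 0 list genes at 2 and 4 h, in CGR8 and in cdSRCAP. It also called Inhbb higher in cdSRCAP than in wtSRCAP without IAA, against 0.175% of genes in either direction. In wtSRCAP introns it called Inhbb, Nedd4l, Pcsk6 and Pmepa1 higher after IAA, against 2.1% of genes in either direction. In cdSRCAP introns it called Pcsk6 higher, against 1.5%. There edgeR called 0 list genes. At an unadjusted p under 0.05, 3 of 44 were higher at 2 h, 8 at 4 h and 5 at 8 h in SYAT cells, with 0, 1 and 1 lower, against 3.92%, 9.09% and 13.6% of all genes in either direction. At 6 h in SYAT cells 8 of 44 were higher and 1 lower at an unadjusted p under 0.05, against 16.1% of genes. The median log2 difference of the list was 0.14 at 2 h, 0.21 at 4 h, 0.23 at 6 h and 0.16 at 8 h, against 0.0034 to 0.031 over all genes. In CGR8 2 of 46 were higher and 0 lower, with a median of -0.02, in wtSRCAP 8 of 42 and 0 with a median of 0.27, and in cdSRCAP 6 of 42 and 0 with a median of 0.31, beside 9.16%, 7.4% and 5.64% of genes at that p in either direction. Inhbb, which encodes a subunit of activin B, was at 2.13 and 3.80 CPM in SYAT control and 10.7 and 27.9 CPM at 6 h, a log2 difference of 2.69 ± 0.56 (edgeR adjusted p = 0.0744). Foxh1, the SMAD partner in the nucleus, differed by 0.52 ± 0.13 at 6 h in SYAT cells and by 0.49 ± 0.20 in wtSRCAP and 0.58 ± 0.20 in cdSRCAP. It was not called by edgeR in any of these, with an edgeR adjusted p of 0.473 over the 4 SYAT times.

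After 1 h of IAA, 1 of 44 list genes was called in EG1 exons, Inhba, the subunit of activin A, with 17 and 8 counts in control and 36 and 22 after IAA (1.54 ± 0.49), against 1.22% of all genes called. In LG1 introns 2 of 41 were called, Foxh1 with 5 and 7 counts in control and 13 and 22 after IAA (1.62 ± 0.53) and Inhbb with 2 and 3 counts in control and 10 and 6 after IAA (1.65 ± 0.63), against 1.24% of genes called higher. The LG1 intron fit was shared with the EG1 intron columns, and a fit of the LG1 libraries alone is not given for Foxh1 and Inhbb. In the EG1 intron columns, which are not read as introns, Smad3 passed through a single library, with 1175 and 0 counts in control and 0 and 0 after IAA. DESeq2, on the same libraries, also called Inhba in EG1 exons, against 0.239% of genes in either direction. It called Foxh1 and Smad3 in these intron columns, but not Inhbb, and its shares of all genes there are not given. These are calls at an unadjusted p under 0.05, on few counts or in a single library, and 0 of all genes reached an adjusted p under 0.05 by edgeR in EG1 exons or LG1 introns.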

How the data were processed

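Nuclear RNA was sequenced as 75-nt paired-end, strand-specific libraries. The authors used STAR for alignment (mm10) and featureCounts with GENCODE genes for counting, and the deposited tables hold raw counts per gene in exon and in intron columns for every library. The tool names follow the submitters' processing notes. Other deposited tables hold the authors' own fold changes and p-values and were not used, and 0 columns of unknown samples were left out. Gene symbols were matched by identifier to the reference annotation. The counts were tested per table with edgeR 4.0.16 in R 4.3.3 (filterByExpr at a minimum count of 10 and total of 15, TMM scaling, quasi-likelihood test, Benjamini-Hochberg adjustment over all genes tested), as a departure from the study's use of DESeq2, which with version 1.42.0 was an alternative. The main fits had no replicate block. The procedure was tested on simulated counts. Counts limit the precision through depth and through 2 replicates per condition, and counting error alone is covered by the limit for a count of 0.

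The 8 members, the list of other pathway genes and the marker lists were chosen with earlier results of these data known. All 8 members are named, with the pathway genes that edgeR called in a comparison and otherwise the 2 of smallest p at 6 h in SYAT exons; pathway genes called by DESeq2 alone were named after their values were seen. For likeness, the 2 genes of highest Pearson r with each member were named. Comparisons of introns between LG1 and EG1, planned at first, were not made because their intron columns hold different reads.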

Additional observations from a re-analysis of the deposited data

Results flagged for a closer look

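Acvr2b differed in opposite directions in intron columns. In CGR8 its introns were at 118 and 119 CPM in control and 108 and 94.3 after 4 h of IAA, a log2 difference of -0.23, with both treated libraries below both controls. In wtSRCAP they were at 102 and 106 CPM in control and 134 and 126 after IAA, a difference of 0.32, and in cdSRCAP at 83.5 and 75.1 in control and 104 and 94.6 after IAA, a difference of 0.33, with both treated libraries above both controls. These values drew attention because every sample of one line lay one way and every sample of the other lines the opposite way. Groups that do not overlap are common. In exon columns, 21.6% of genes in CGR8, 14.9% in wtSRCAP and 18.7% in cdSRCAP had treated libraries above both controls. The shares in intron columns are not given. None passed the thresholds, and the difference between the lines, which come from separately made tables, was not tested.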

How the results depend on the processing

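Of 297 counts of members called under an alternative, 261 stayed within 1.5 times the main count and 36 did not, and of 1867 log2 differences 1789 kept direction and side of the thresholds, 57 passed them where the main fit did not, 5 (all Acvr2b in LG1 introns) no longer passed, and 16 turned. DESeq2 called 3 members in CGR8 exons, 2 in wtSRCAP and 1 in cdSRCAP. Without a filter on low counts edgeR called 4 in CGR8, 2 in wtSRCAP, 1 in cdSRCAP, 1 at 4 h, 2 at 6 h and 1 at 8 h in SYAT exons, 2 over any time, 1 in wtSRCAP introns and 0 in LG1 introns, where 0 were also called with only the 4 libraries compared. Calls in CGR8 exons, CGR8 introns and LG1 introns also moved with 1 library left out. Such a fit has a lone library in 1 group, and its calls are not read. The share of all genes called without the filter is not given beside the counts of members, so those counts do not set the members apart from other genes. The cause of these moves was not tested.

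The numbers of the replicates pair no samples by the labels, and same-numbered libraries had deviations correlated from -0.04 to 0.59 in the time course exons, at 0.07 in CGR8, from 0.37 to 0.59 in EG1 and LG1 and from 0.26 to 0.38 in wtSRCAP and cdSRCAP. With a replicate block, edgeR called 4 members in CGR8 exons (Lefty1, Lefty2, Skil and Tdgf1), 3 in cdSRCAP (Lefty1, Lefty2 and Skil), 2 in wtSRCAP (Lefty1 and Lefty2), 1 at 6 h in SYAT (Lefty2) and 3 in LG1 introns (Acvr2b, Skil and Tdgf1). DESeq2 with the replicate block called 4 in CGR8 exons, 3 in cdSRCAP, 2 in wtSRCAP, 1 at 4 h, 2 at 6 h and 1 at 8 h in SYAT exons, 2 over any time, 3 in LG1 introns, and 1 each in wtSRCAP introns, SYAT intron columns at 6 h and SYAT intron columns over any time. Intron columns of SYAT cells are not read as introns, since they also hold exon reads. The block changed no other count by over 1.5 times. The share of all genes called with the block is not given beside these counts, so they do not set the members apart from other genes.

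The 16 log2 differences that turned, with the value before or after over 1 SE from 0, did so when 1 library was left out, and are given with the range over all libraries left out. Without replicate 1 of the SYAT libraries at that time, Lefty1 at 4 h was at -0.096 (to 1.17) in exons and -0.18 (to 1.15) in intron columns, Skil at 6 h at -0.21 (to 0.20) and Lefty2 in intron columns at 8 h at -0.11 (to 1.29). Without replicate 2 of the LG1 IAA libraries, Lefty1 introns in LG1 were at -0.63 (to 1.35), and the Smad7 response in LG1 against EG1 at -0.39 (to 0.33). Without replicate 2 of the wtSRCAP IAA libraries, Tdgf1 exons were at -0.088 (to 0.79) and Nodal introns at -0.75 (to 0.53) in wtSRCAP. cdSRCAP against wtSRCAP after IAA was then at 0.37 (from -0.36) for Skil exons, 0.20 (from -1.17) for Lefty1 introns and 0.75 (from -0.52) for Nodal introns, and the Nodal intron response in cdSRCAP against wtSRCAP at 0.65 (from -0.60). Without replicate 1 of the same libraries, Smad7 exons in wtSRCAP were at -0.13 (to 1.07), and Smad7 in cdSRCAP against wtSRCAP after IAA at 0.50 (from -0.66) in exons and 0.25 (from -0.40) in introns. Without replicate 1 of the cdSRCAP control, the Skil intron response in cdSRCAP against wtSRCAP was at 0.37 (from -0.28). Depth limits the intron values of Lefty1 and Lefty2 most, with 0 to 80 counts per library outside SYAT and EG1.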
